A study of Mus musculus with 45 samples.

Results

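The Schwann cell genes described here are 6 genes, Sox10, S100b, Gfap, Ngfr, Cdh19 and Foxd3, taken by symbol from a matrix of 22904 genes in 45 RNA sequencing libraries of mouse pancreatic islets. All 6 were in the matrix, and all 6 passed the filter on low counts together with 20306 genes in all. The libraries came from islets of Langerhans, the hormone-secreting cell clusters of the pancreas, of inbred mice of 3 strains, C57BL/6J, CAST/EiJ and NZO/HlLtJ. C57BL/6J is a common laboratory strain, CAST/EiJ is wild-derived, and NZO/HlLtJ is obese and prone to diabetes. From 6 weeks of age, mice of both sexes ate feed with added fiber and either 10% fat, the control, or 44% fat, which was also high in sugar. Their islets were collected at 16 weeks. Of the 12 groups of strain, sex and diet, 9 held 4 libraries, and 3 groups of males held 3 each (CAST/EiJ on 10% fat, NZO/HlLtJ on 10% and on 44% fat).

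Schwann cells are the glia of peripheral nerves. They descend from the neural crest, support or myelinate axons, and return to a proliferating, growth factor secreting state after nerve injury. In mouse islets, non-myelinating Schwann cells form a thin sheath around the endocrine cells, which sympathetic and parasympathetic fibres cross to reach the islet. Sox10 is the transcription factor that specifies the lineage, and Foxd3 is a transcription factor of neural crest cells and glial precursors. Gfap encodes an intermediate filament, S100b a calcium-binding protein, and Cdh19 a cadherin of Schwann cells and their precursors. Ngfr encodes the low-affinity neurotrophin receptor p75. Gfap and Ngfr are also used by pancreatic stellate cells in mice, and Ngfr by sympathetic neurons.

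Levels are given as CPM, counts scaled by library size after correction for library composition. Library totals ran from 57.2 to 110 M counts with a median of 84.4 M. All 6 genes were at low levels and were counted in every library. Foxd3 was the least abundant, with 5 to 208 counts per library, and Cdh19 the most abundant, with 70 to 1014. Per kilobase of exon, the median CPM over the 45 libraries was 1.04 for Ngfr, 0.926 for Cdh19, 0.811 for Sox10, 0.645 for S100b, 0.345 for Gfap and 0.274 for Foxd3. In such bulk RNA, fewer cells of a type and less RNA per cell cannot be told apart. Beta cell transcripts (8 genes) were at 43028 to 160901 CPM in sum in every library. Transcripts found only in another strain were highest in a set of 5 libraries. Replicates 1, 2 and 4 of CAST/EiJ females on 44% fat carried C57BL/6J marker transcripts at medians of 9.84%, 3.51% and 3.86% of the C57BL/6J level, and replicate 3 of NZO/HlLtJ males on 44% fat carried them at 4.11%. Replicate 2 of C57BL/6J females on 44% fat held NZO/HlLtJ markers at 0.692%. Some other libraries also had medians above 0 and were kept throughout. The highest of these was 0.656% for C57BL/6J markers in replicate 3 of NZO/HlLtJ males on 10% fat. Markers between C57BL/6J and NZO/HlLtJ were only 7 in either direction. Results that lose their call without these 5 libraries are named below. Sample codes fall into number series 76, 80 and 89, which the labels do not explain.

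The 6 genes lie on 5 chromosomes of the GRCm38 build, as annotated in the deposited tables. Sox10 spans 79154913 to 79164490 of chromosome 15 on the minus strand, and S100b spans 76253853 to 76261159 of chromosome 10 on the plus strand. Gfap (102887336 to 102900912) and Ngfr (95568818 to 95587735) are both on the minus strand of chromosome 11. Cdh19 spans 110888326 to 110977584 of chromosome 1 on the minus strand, and Foxd3, which has 1 exon, spans 99656299 to 99658622 of chromosome 4 on the plus strand. In the GENCODE M21 annotation S100b overlaps Dip2a on the opposite strand without shared exon bases, and Gfap lies inside the lincRNA Gm26668 on the opposite strand in the same way. The sources used here do not say whether the authors counted by strand, so reads of such pairs may not be told apart. On its own strand, Cdh19 holds the unverified transcripts Gm38255 and Gm36944 within introns, at no more than 0.124 and 0.0826 CPM. Foxd3 holds a miRNA gene of 89 bases, Gm23366, within its exon.

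Promoter sequence matched 4 of the 6 genes in RefSeq (GRCm38.p6, 250 bases before the start to 50 after it). Those of S100b, Ngfr and Foxd3 are shown because S100b departed from the other members between strains and the levels of Ngfr and Foxd3 passed the test for the diet effect in NZO/HlLtJ below. Each is written 5′ to 3′ on the gene's strand, and capitals mark matches to the motifs searched.
S100b, chr10:76253586-76253885, plus strand: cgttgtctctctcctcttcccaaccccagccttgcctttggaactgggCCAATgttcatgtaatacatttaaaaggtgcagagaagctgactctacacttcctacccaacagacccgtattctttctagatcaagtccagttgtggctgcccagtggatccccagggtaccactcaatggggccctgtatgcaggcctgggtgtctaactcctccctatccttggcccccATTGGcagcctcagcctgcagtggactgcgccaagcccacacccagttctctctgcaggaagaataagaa
Ngfr, chr11:95587649-95587948, minus strand: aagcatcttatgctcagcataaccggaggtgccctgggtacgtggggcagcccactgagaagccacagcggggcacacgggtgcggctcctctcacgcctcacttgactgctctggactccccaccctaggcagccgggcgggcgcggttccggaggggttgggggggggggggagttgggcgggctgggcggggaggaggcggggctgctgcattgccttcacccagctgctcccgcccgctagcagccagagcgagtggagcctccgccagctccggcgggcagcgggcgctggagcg
Foxd3, chr4:99656049-99656348, plus strand: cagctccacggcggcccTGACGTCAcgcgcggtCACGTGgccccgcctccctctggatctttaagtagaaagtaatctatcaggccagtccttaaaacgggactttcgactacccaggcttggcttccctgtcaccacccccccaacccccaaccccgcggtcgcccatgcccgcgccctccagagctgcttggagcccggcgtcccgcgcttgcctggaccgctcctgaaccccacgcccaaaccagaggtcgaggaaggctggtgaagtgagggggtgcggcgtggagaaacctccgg
The motifs searched on both strands were ACAAAG and ACAATG, which SOX factors bind, the CCAAT box, the TATA box TATAAA, the cyclic AMP response element TGACGTCA and the E-box CACGTG. They occurred in 18.7%, 12.6%, 37.4%, 13.6%, 1.79% and 7.15% of 32851 promoters of the same length. S100b held CCAAT at position -202 and its reverse complement at -20 from the start. Foxd3 held TGACGTCA at -233 and CACGTG at -217, which are palindromes and read the same on either strand. The windows of Ngfr and Gfap held none of the 6 motifs, which says only that these letters are not there. The GC content was 71.7% for Ngfr and 65.7% for Foxd3 against 53.7% for S100b, with a median of 52.7% over all promoters.

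The highest levels of 5 of the 6 genes were in NZO/HlLtJ males on 44% fat, and the highest levels of S100b were in CAST/EiJ. The lineage factor Sox10 had a mean of 5.66 ± 0.748 CPM (SD, n = 3) in NZO/HlLtJ males on 44% fat, and these 3 libraries did not overlap the next group in the order, CAST/EiJ females on 44% fat at 3.01 ± 0.625 CPM (n = 4). From there down to C57BL/6J males on 44% fat, the lowest at 1.27 ± 0.345 CPM (n = 4), each group's Sox10 values overlapped those of its neighbour. The cadherin gene Cdh19 had the same first group at 10.5 ± 2.99 CPM, not overlapping CAST/EiJ males on 44% fat at 6.18 ± 0.416 CPM. The receptor gene Ngfr was at 8.65 ± 0.549 CPM in NZO/HlLtJ males on 44% fat and at 4.90 ± 1.66 CPM in the next group, CAST/EiJ females on 44% fat, again without overlap. The filament gene Gfap was at 4.10 ± 0.796 CPM in the same males and at 2.18 ± 1.09 CPM in CAST/EiJ females on 44% fat, and these groups did not overlap. Foxd3 was at 1.87 ± 0.868 CPM in NZO/HlLtJ males on 44% fat, and its values overlapped those of the next group, CAST/EiJ females on 10% fat at 0.937 ± 0.463 CPM. For S100b the 4 CAST/EiJ groups came first, at 1.91 to 2.35 CPM, and NZO/HlLtJ males on 44% fat came next at 1.33 ± 0.324 CPM. Summed over the 6 genes, libraries ran from 3.93 to 16.3 CPM in C57BL/6J, from 7.81 to 23.1 CPM in CAST/EiJ and from 7.46 to 38.4 CPM in NZO/HlLtJ.

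**Figure D1:**
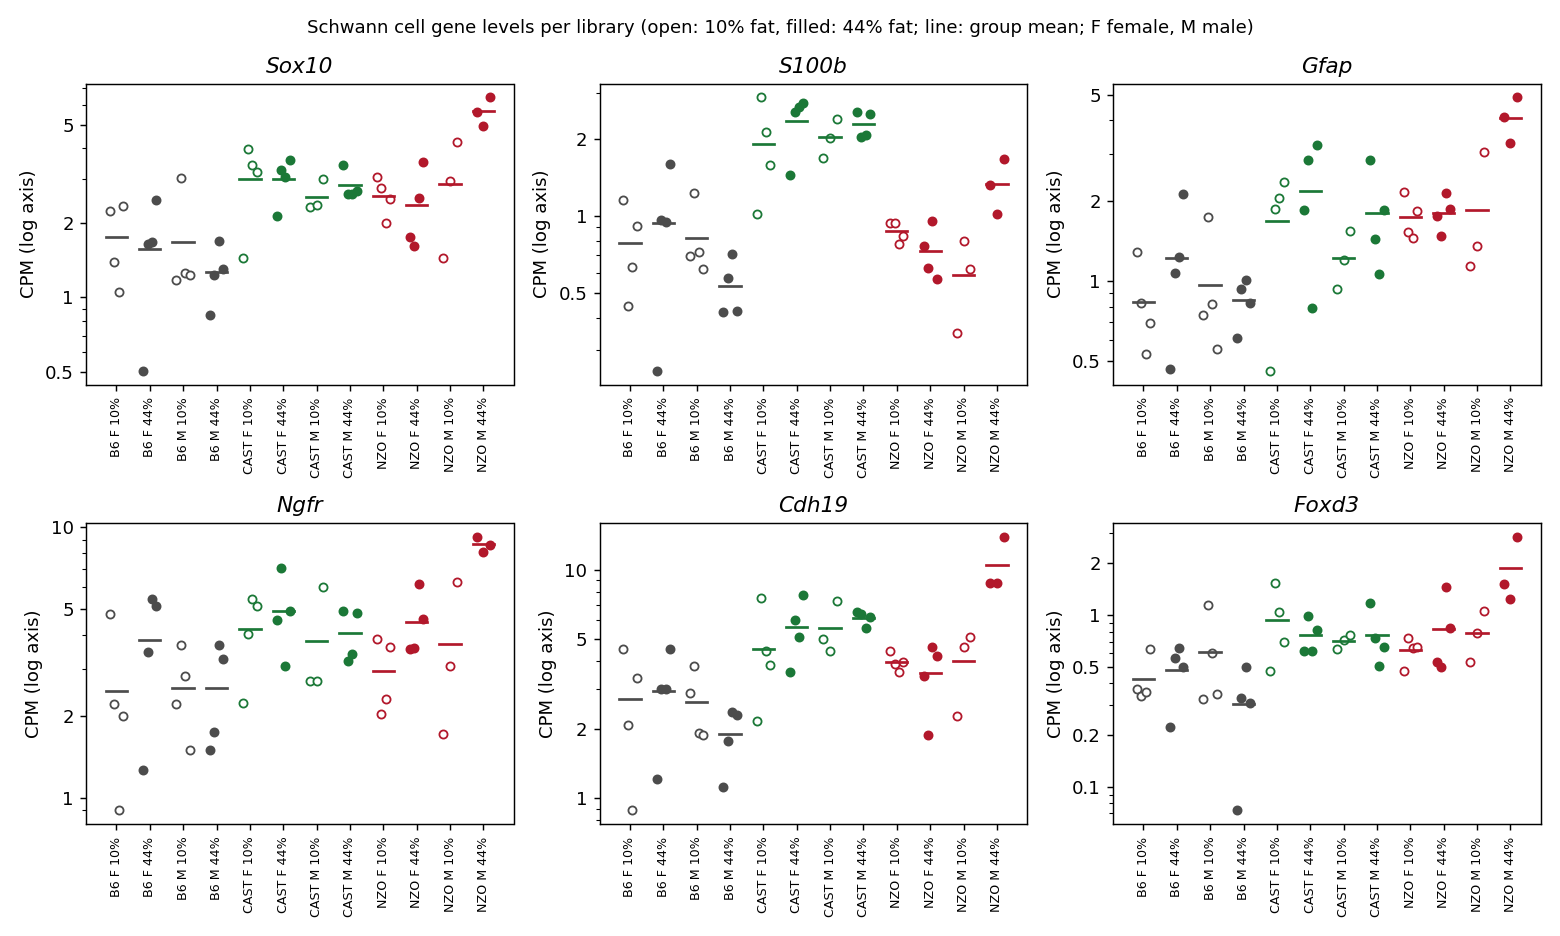
CPM of each gene in every library (log axis), by strain (B6 is C57BL/6J), sex (F, M) and diet, with open points for 10% fat, filled points for 44% fat and lines for group means. NZO/HlLtJ males on 44% fat stand highest for 5 genes, whereas S100b is highest in the CAST/EiJ groups.

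The question is how islets of the strains differ on each diet. On 44% fat, 5 of the 6 genes were higher in NZO/HlLtJ, and 5 in CAST/EiJ, than in C57BL/6J. Over all genes tested, 32.4% and 24.8% were called higher in these comparisons, and 67.8% and 50.5% were called in either direction. On 44% fat, Sox10 was at 0.505 CPM in the lowest, 1.47 in the median and 2.48 in the highest of 8 C57BL/6J libraries. In the 7 NZO/HlLtJ libraries it was at 1.62, 3.52 and 6.44 CPM, and in the 8 CAST/EiJ libraries at 2.13, 2.88 and 3.58 CPM. The ranges of all 3 strains overlapped. As a mean over the sexes, Sox10 was higher in NZO/HlLtJ than in C57BL/6J by a log2 fold change of 1.37 (SE 0.26, edgeR quasi-likelihood adjusted p = 1.65e-05) and higher in CAST/EiJ than in C57BL/6J by 1.05 (SE 0.25, adjusted p = 0.000535). Foxd3 was at 0.0729, 0.412 and 0.645 CPM in the lowest, median and highest C57BL/6J library on 44% fat, and at 0.496, 1.24 and 2.86 CPM in NZO/HlLtJ. This was the largest difference of a member between NZO/HlLtJ and C57BL/6J on this diet, with a log2 fold change of 1.70 (SE 0.30, adjusted p = 7.87e-06).

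On 44% fat 5 of the 6 genes were higher in NZO/HlLtJ than in C57BL/6J and none was lower, where 67.8% of all genes tested were called in either direction and 32.4% were called higher. The members' median log2 fold change was 1.37, against -0.05 over all genes. Cdh19 (1.36, SE 0.28), Gfap (1.42, SE 0.30) and Ngfr (0.99, SE 0.31) were the others that passed, and S100b did not (0.48, SE 0.26, adjusted p = 0.0939). These 5 calls held when any 1 of the 15 libraries was left out. They are for means over the sexes, and the group means of these 5 genes lay farther apart in males than in females. Cdh19 was at 10.5 CPM in NZO/HlLtJ against 1.90 CPM in C57BL/6J males, and at 3.52 against 2.94 CPM in females. Sox10 was at 5.66 against 1.27 CPM in males and at 2.36 against 1.57 CPM in females. The strains were not tested within each sex. In CAST/EiJ against C57BL/6J on 44% fat, 5 of 6 were higher and none lower, against 50.5% of all genes called and 24.8% called higher, with a median of 1.02. S100b led with 1.71 (SE 0.24, adjusted p = 1.64e-07), followed by Cdh19 at 1.31 (SE 0.27), and Ngfr did not pass (0.52, SE 0.30, adjusted p = 0.146). Without the 5 libraries that held another strain's transcripts, which leaves 1 CAST/EiJ female on 44% fat, Gfap (0.24, adjusted p = 0.659) and Foxd3 (0.92, adjusted p = 0.0707) lost this call.

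On 10% fat fewer members passed against C57BL/6J, 2 in NZO/HlLtJ and 3 in CAST/EiJ. Sox10 was at 1.05, 1.32 and 3.04 CPM in the lowest, median and highest of 8 C57BL/6J libraries, at 1.44, 3.0 and 3.97 CPM in 7 CAST/EiJ libraries and at 1.44, 2.76 and 4.25 CPM in 7 NZO/HlLtJ libraries, all of which overlapped. In NZO/HlLtJ against C57BL/6J, 2 of 6 were higher and none lower, against 43.8% of all genes called and 22.8% called higher, namely Gfap (0.98, SE 0.31, adjusted p = 0.00944) and Sox10 (0.66, SE 0.26, adjusted p = 0.0339). Leaving out replicate 3 of the NZO/HlLtJ males ended the Gfap call (0.70, adjusted p = 0.0815), and the Sox10 call was lost without any one of 8 of the 15 libraries. In CAST/EiJ against C57BL/6J, 3 of 6 were higher and none lower, against 48.0% of all genes called and 24.4% called higher. These were S100b (1.29, SE 0.25, adjusted p = 3.77e-05), Cdh19 (0.90, SE 0.27, adjusted p = 0.00615) and Sox10 (0.69, SE 0.26, adjusted p = 0.0247), and the last was lost without any one of 6 of the 15 libraries. The other members were at 0.66 to 0.69 with adjusted p from 0.0603 to 0.0798. The comparisons of NZO/HlLtJ and of CAST/EiJ with C57BL/6J share the same C57BL/6J libraries. Genes of stellate cells and fibroblasts, cells that also use Gfap and Ngfr, differed between the strains as well. Of 11 such genes, 9 were higher and none lower in NZO/HlLtJ than in C57BL/6J on 10% fat, and 11 and none on 44% fat, with sums of 707 to 4218 CPM in NZO/HlLtJ and 299 to 685 CPM in C57BL/6J. In CAST/EiJ, at 336 to 691 CPM, 2 were higher and 1 lower than in C57BL/6J on 10% fat. Endothelial genes were higher in NZO/HlLtJ than in C57BL/6J in 6 of 6 on either diet. The part of these cells in the strain differences of the 6 genes was not tested.

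Between NZO/HlLtJ and CAST/EiJ, 1 member stood out on both diets. On 10% fat 1 of 6 genes was called, against 54.8% of all genes, and on 44% fat 2 of 6, against 70.9%. S100b was at 1.02, 2.01 and 2.90 CPM in the lowest, median and highest of 7 CAST/EiJ libraries on 10% fat and at 0.349, 0.795 and 0.941 CPM in 7 NZO/HlLtJ libraries, and these did not overlap. On 44% fat it was at 1.44, 2.52 and 2.76 CPM in CAST/EiJ and at 0.566, 0.958 and 1.67 CPM in NZO/HlLtJ, which overlapped. The log2 fold change of NZO/HlLtJ against CAST/EiJ was -1.46 on 10% fat (SE 0.26, adjusted p = 1.18e-05) and -1.23 on 44% fat (SE 0.25, adjusted p = 4.29e-05). Foxd3 was higher in NZO/HlLtJ on 44% fat by 0.70 (SE 0.29, adjusted p = 0.0299), a call lost without any one of 6 of the 15 libraries and without the 5 libraries above (0.63, adjusted p = 0.207). The remaining members were at -0.34 to 0.32 on 10% fat and at 0.05 to 0.48 on 44% fat, and none passed. Dip2a, which overlaps S100b, was at -0.02 on 10% fat (SE 0.10, adjusted p = 0.908) and -0.12 on 44% fat (SE 0.09, adjusted p = 0.239).

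**Figure D2:**
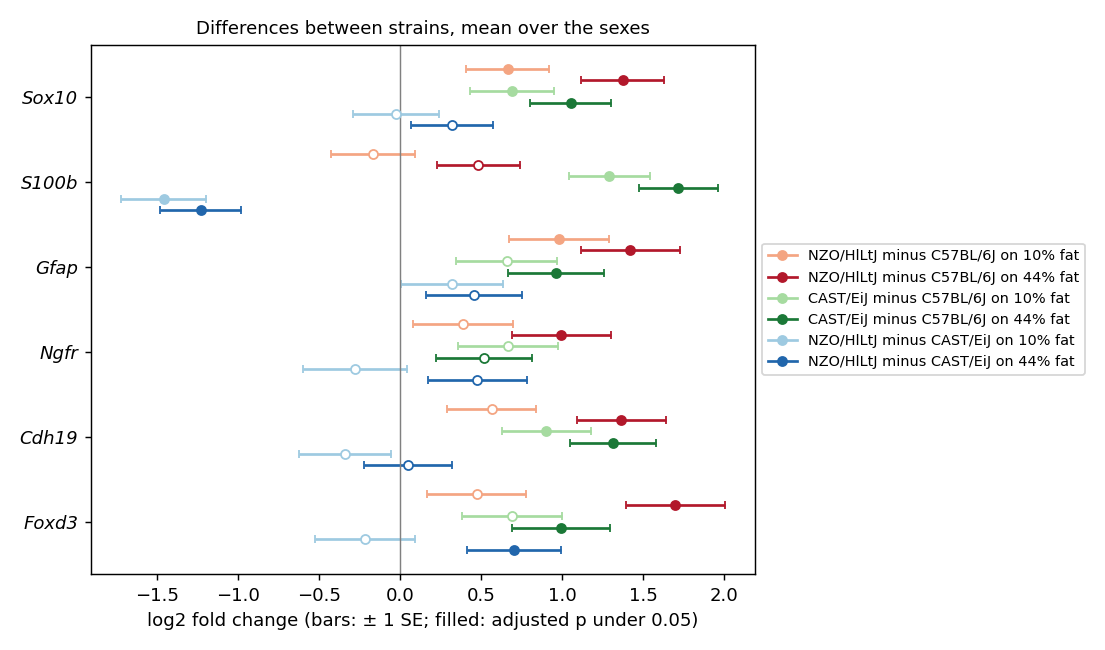
Log2 fold changes between strains on each diet (x axis, bars of 1 SE) for the 6 genes, as means over the sexes, with filled points for an adjusted p under 0.05. S100b lies at -1.46 and -1.23 for NZO/HlLtJ minus CAST/EiJ, while the other members lie between -0.34 and 0.70 in that comparison.

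S100b was therefore set against Sox10 within each library, a comparison made after the values were seen. On 10% fat there were 0.704 ± 0.117 S100b counts per Sox10 count in CAST/EiJ (SD, n = 7), 0.488 ± 0.106 in C57BL/6J (n = 8) and 0.289 ± 0.0796 in NZO/HlLtJ (n = 7). On 44% fat the ratios were 0.790 ± 0.0763 (n = 8), 0.499 ± 0.0996 (n = 8) and 0.294 ± 0.104 (n = 7). CAST/EiJ and NZO/HlLtJ did not overlap on either diet. In NZO/HlLtJ males the ratios were 0.242, 0.269 and 0.146 on 10% fat and 0.235, 0.206 and 0.259 on 44% fat. In its females they were 0.306, 0.340, 0.389 and 0.333 on 10% fat and 0.432, 0.386, 0.379 and 0.161 on 44% fat. The lowest C57BL/6J ratios were 0.319 and 0.327 on these diets, so most of these females overlapped C57BL/6J and the males did not. The tests below took both sexes together, and the ratios were not tested within each sex. Of 30 two-sided exact permutation tests (the log2 ratio of each other member to Sox10, 3 pairs of strains, 2 diets), the 6 that involved S100b passed and none of the others did. The log2 ratio in NZO/HlLtJ minus CAST/EiJ was -1.31 on 10% fat (exact permutation adjusted p = 0.00583) and -1.50 on 44% fat (adjusted p = 0.00466). CAST/EiJ minus C57BL/6J gave 0.54 (adjusted p = 0.0202) and 0.68 (adjusted p = 0.00466), and NZO/HlLtJ minus C57BL/6J gave -0.78 (adjusted p = 0.0186) and -0.82 (adjusted p = 0.0202), all by the same exact permutation test. The last of these was lost without the 5 libraries above (-0.77, exact permutation adjusted p = 0.0649). The lowest adjusted p of the other 24 tests was 0.0726, for Ngfr in CAST/EiJ minus C57BL/6J on 44% fat by exact permutation (-0.53). Whether the counting favours alleles of one strain at S100b was not tested.

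**Figure D3:**
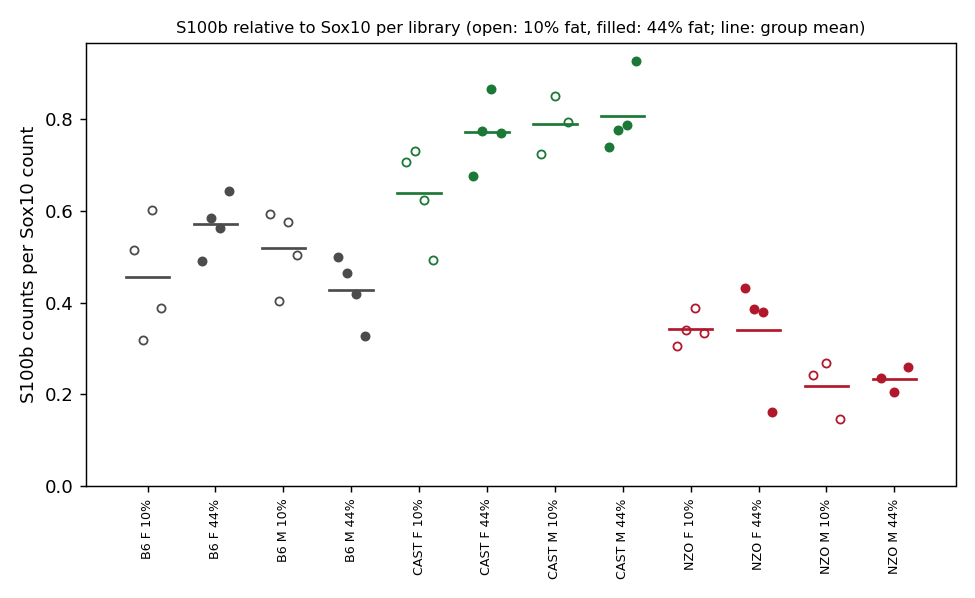
S100b counts per Sox10 count (y axis, starting at 0) in each library by group, with open points for 10% fat, filled points for 44% fat and lines for group means. The ratio is 0.704 and 0.790 on average in CAST/EiJ, 0.488 and 0.499 in C57BL/6J, and 0.289 and 0.294 in NZO/HlLtJ, on 10% and 44% fat in turn.

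The high fat diet went with higher levels of these genes in NZO/HlLtJ males. Cdh19 was at 2.28, 4.57 and 5.07 CPM in NZO/HlLtJ males on 10% fat and at 8.78, 8.79 and 14.0 CPM on 44% fat. Ngfr was at 1.71, 3.07 and 6.28 CPM on 10% fat and at 9.22, 8.12 and 8.62 CPM on 44% fat. S100b was at 0.349, 0.795 and 0.620 CPM on 10% fat and at 1.32, 1.02 and 1.67 CPM on 44% fat. In each of these genes all 3 libraries on 44% fat were above all 3 on 10% fat. Foxd3 was at 0.535, 0.784 and 1.05 CPM on 10% fat and at 1.51, 1.24 and 2.86 CPM on 44% fat. Sox10 was at 1.44, 2.96 and 4.25 CPM on 10% fat and at 5.60, 4.95 and 6.44 CPM on 44% fat, and Gfap was at 1.14, 1.36 and 3.03 CPM and at 4.13, 3.29 and 4.89 CPM. These 3 genes did not overlap between the diets either, which makes 6 of 6 with all libraries on 44% fat above all on 10% fat. The same held for 4064 of the 20306 genes tested, and edgeR called 32.1% of all genes. Replicate 1 of the males on 10% fat had the lowest value of the group in all 6 genes.

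By the test across all genes, 4 of the 6 genes rose in NZO/HlLtJ males and none fell, where 17.0% of all genes were called higher. Cdh19 rose by 1.40 (SE 0.43, adjusted p = 0.0118), Foxd3 by 1.25 (SE 0.45, adjusted p = 0.0313), Ngfr by 1.23 (SE 0.48, adjusted p = 0.0482) and S100b by 1.18 (SE 0.41, adjusted p = 0.0233) on the log2 scale. Gfap was at 1.16 (SE 0.47, adjusted p = 0.0542) and Sox10 at 0.98 (SE 0.40, adjusted p = 0.0566), just outside the threshold of 0.05. The median over the 6 was 1.21, against -0.03 over all genes. These calls rested on single libraries. Leaving out 1 of the 6 male libraries gave 0 to 6 members called, and the 4 calls were all lost without replicate 1 on 10% fat or without replicate 3 on 44% fat, the latter one of the libraries with another strain's transcripts. The Ngfr call was lost in 5 of the 6 cases. Without the 5 such libraries the log2 fold changes were 1.13 for Cdh19 (adjusted p = 0.120), 1.22 for Ngfr (adjusted p = 0.144), 0.98 for S100b (adjusted p = 0.153) and 0.80 for Foxd3 (adjusted p = 0.321), and no member was called.

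In NZO/HlLtJ females no member passed, where 17.2% of all genes were called, and no member did at an unadjusted p under 0.05 either. Sox10 was at 3.07, 2.76, 1.99 and 2.49 CPM on 10% fat and at 1.76, 1.62, 2.52 and 3.52 CPM on 44% fat, which overlapped. The log2 fold changes of the 6 genes ran from -0.26 for S100b to 0.60 for Ngfr, with a median of -0.03. The diet effect in males minus that in females was above 0 in all 6, from 0.63 for Ngfr (SE 0.64) to 1.57 for Cdh19 (SE 0.57). None passed (lowest adjusted p = 0.0711, for Cdh19), where 10.0% of all genes were called, although 3 were at an unadjusted p under 0.05. DESeq2 called 2 of these differences and limma 1. Number series and diet are partly confounded within each sex in NZO/HlLtJ, and with the series as a factor 3 members were called. Within series 76, the only one with both diets in both sexes, the log2 differences between diets were 0.96 to 2.13 in males and -0.64 to 0.29 in females, from 1 to 2 libraries per diet and sex and so with no test.

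Averaged over the sexes in NZO/HlLtJ, 2 of the 6 genes rose and none fell, where 35.8% of all genes were called and 18.5% were called higher. Ngfr rose by 0.92 (SE 0.32, adjusted p = 0.0228) and Foxd3 by 0.83 (SE 0.30, adjusted p = 0.0296). The other 4 were at 0.42 to 0.62, with adjusted p from 0.0859 for Cdh19 to 0.219 for Sox10, and the median over the 6 was 0.61. Within series 76 the values were 1.21 for Ngfr and 0.43 for Foxd3. Leaving out single libraries gave 0 to 3 members called. The Ngfr call was lost without male 10% fat replicate 1 or 2 or female 44% fat replicate 3, and the Foxd3 call without any of those, without male 44% fat replicate 3 or without female 10% fat replicate 1, with adjusted p up to 0.100 and 0.146. Without the 5 libraries above, Ngfr was at 0.91 (adjusted p = 0.0577) and Foxd3 at 0.60 (adjusted p = 0.184).

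Neither of the other strains gave a diet call among the 6 genes. In C57BL/6J 0.0246% of all genes were called, and the members were at -0.40 for Foxd3 to 0.31 for Ngfr, with SE up to 0.31. In CAST/EiJ 0.0443% of all genes were called, and the members were at -0.09 for Foxd3 to 0.47 for Gfap, with SE up to 0.31. In both strains 0 members were at an unadjusted p under 0.05 by edgeR, and DESeq2 and limma called 0 as well. The diet effect in NZO/HlLtJ minus that in C57BL/6J passed for Foxd3 alone, at 1.22 (SE 0.43, adjusted p = 0.0433), where 18.8% of all genes were called. That call was lost without any one of 15 of the 30 libraries involved and without the 5 libraries above (1.05, adjusted p = 0.148). The other 5 were at 0.44 to 0.80 with adjusted p of at least 0.146. Against CAST/EiJ no difference in the diet effect passed (25.7% of all genes called), with values from 0.14 for Gfap to 0.92 for Foxd3 (adjusted p = 0.105), and 1 member was at an unadjusted p under 0.05. On 10% fat, males minus females averaged over the strains gave -0.14 to 0.15 for the 6 genes, with SE up to 0.26. No member passed there, also at an unadjusted p under 0.05, against 0.911% of all genes.

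**Figure D4:**
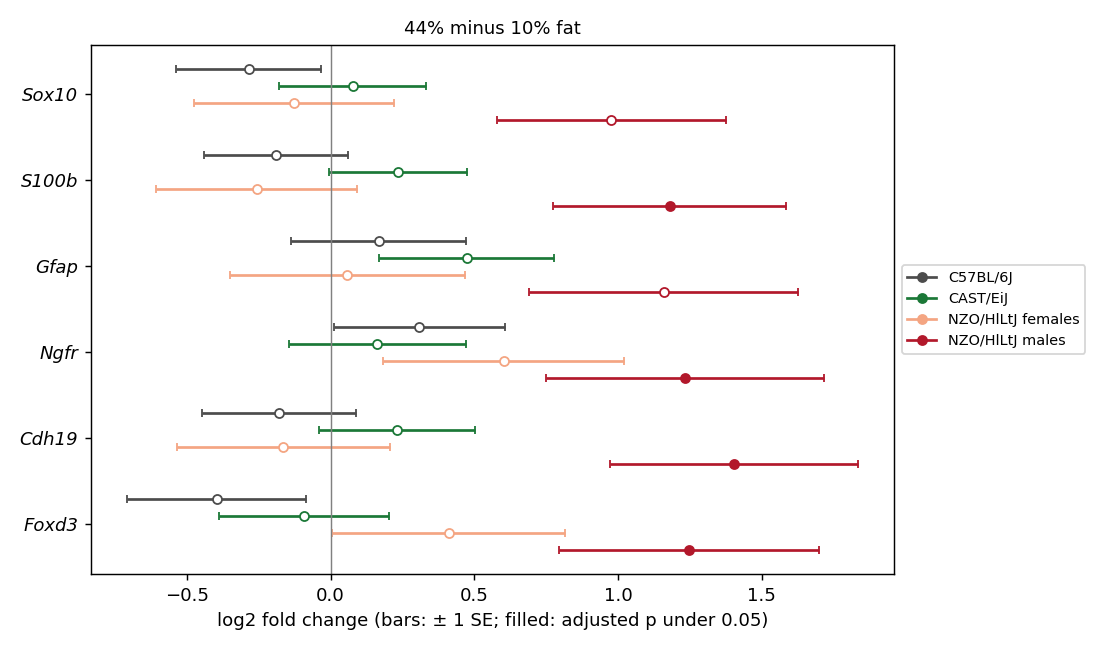
Log2 fold changes of 44% against 10% fat (x axis, bars of 1 SE) for the 6 genes in C57BL/6J, CAST/EiJ, NZO/HlLtJ females and NZO/HlLtJ males, with filled points for an adjusted p under 0.05. The males of NZO/HlLtJ lie at 0.98 to 1.40, and the females at -0.26 to 0.60.

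Other genes of the Schwann lineage were counted in the same comparisons. With diet in NZO/HlLtJ, 32.1% of all genes were called in males, 17.2% in females and 35.8% as a mean over the sexes. In males 17.0% were called higher, and 18.5% as a mean over the sexes. Of 16 genes of myelin and myelinating Schwann cells, the NZO/HlLtJ males had 8 that rose and 1 that fell on 44% fat (median log2 fold change 0.87), and the females 0 and 1 (0.21). The one that fell in females was Ncmap, a myelin membrane protein (-0.84, SE 0.22, adjusted p = 0.00657). Of 20 further Schwann lineage genes, 10 rose and 1 fell in males (1.10), and 1 rose and 2 fell in females (0.03). As a mean over the sexes, 7 of 16 myelin genes rose and none fell. They included Gldn, which gathers sodium channels at nodes of Ranvier (2.01, SE 0.54), Mal, a proteolipid of compact myelin that epithelia also make (1.31, SE 0.26), Drp2 of the Schwann cell dystroglycan complex (1.07, SE 0.30), and Ugt8a, an enzyme of galactolipid synthesis (0.75, SE 0.19). Gldn remained at or below 0.427 CPM in every NZO/HlLtJ library. Of the 20 lineage genes, 7 rose and 2 fell. Those that rose included Mpzl2, an adhesion protein that epithelia also make (2.05, SE 0.58), Adgrg6, the adhesion receptor required for Schwann cell myelination (1.24, SE 0.28), Erbb3, the neuregulin receptor (0.95, SE 0.22), and Dhh, the hedgehog ligand of Schwann cells (0.82, SE 0.26). Those that fell included Ncam1 (-0.28, SE 0.08), an adhesion protein that neurons and endocrine cells also make. Adgrg6 was at 18.1 to 35.6 CPM in the 3 males on 44% fat, against 3.60 to 10.2 CPM in the 3 on 10% fat. Summed duct cell genes were at 922 to 1607 CPM and at 364 to 689 CPM in these males. The part of duct or other cells in the changes of these lists was not tested. Without the 5 libraries with another strain's transcripts, 4 myelin genes rose and 1 fell over the sexes, and 4 lineage genes rose and 2 fell. In males alone, 4 myelin and 3 lineage genes then rose and none fell in either list.

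Between NZO/HlLtJ and C57BL/6J on 10% fat, 6 of 16 myelin genes were higher in NZO/HlLtJ and 1 lower, where 43.8% of all genes were called. On 44% fat 13 were higher and none lower, where 67.8% of all genes were called, or 10 and none without the 5 libraries. Mag, a myelin adhesion protein, was at a log2 fold change of 1.55 on 10% fat (SE 0.31, edgeR adjusted p = 7.87e-05). Fa2h, a fatty acid hydroxylase of myelin lipids, was at 1.04 (SE 0.29) and Ncmap at 0.80 (SE 0.16), while Ugt8a was the one that was lower (-0.71, SE 0.19). Mag and Fa2h were at low levels, with medians of 0.195 and 0.296 CPM over the 45 libraries. The lineage list was mixed on 10% fat, with 4 higher and 3 lower. Gas7, named for growth arrest, was higher (1.07, SE 0.16) and so was Dhh (0.90, SE 0.27), while Gap43, a growth cone protein of axons and glia, was lower (-1.34, SE 0.23), as was Ncam1 (-0.79, SE 0.08). On 44% fat 14 of the 20 lineage genes were higher, and 3 were lower, Gap43 and Ncam1 again among them. For CAST/EiJ against C57BL/6J, 48.0% of all genes were called on 10% fat and 50.5% on 44% fat. In CAST/EiJ against C57BL/6J, 9 lineage genes were higher and 3 lower on 10% fat, and 15 and 2 on 44% fat, or 8 and 1 without the 5 libraries.

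Genes of the signals that Schwann cells send and receive were counted in 3 lists. Beside them, 35.8% of all genes were called with diet in NZO/HlLtJ and 18.5% were called higher. In either direction, the shares called in the neurotrophin and repair lists were near that of all genes. Of 13 neurotrophin and receptor genes, 3 rose and 2 fell on 44% fat in NZO/HlLtJ, averaged over the sexes. Ntf5, which encodes neurotrophin-4, rose by 1.35 (SE 0.47) and Sorcs2, a co-receptor of p75, by 0.82 (SE 0.18), while Lingo1, a p75 partner in the Nogo receptor complex, fell by 0.86 (SE 0.16). Of 10 genes of neuregulin, endothelin and related signals 5 rose and none fell with diet, among them Adgrg6 and Erbb3 of the lineage list, Nrg2 (1.30, SE 0.42), a neuregulin, and Erbb2 (1.22, SE 0.27), the partner of Erbb3. Nrg1, the neuregulin on axons, was lower in NZO/HlLtJ than in C57BL/6J on 10% fat (-1.15, SE 0.20), and Ednrb, the endothelin receptor of the neural crest, was higher (1.13, SE 0.12). Of 11 genes tested that repair Schwann cells use after injury, 4 rose and none fell with diet, among them Runx2, a transcription factor (1.56, SE 0.27), and the cytokine genes Clcf1 (1.34, SE 0.32) and Lif (1.03, SE 0.30). Gdnf, a growth factor for neurons, was higher in NZO/HlLtJ than in C57BL/6J on 10% fat (1.77, SE 0.43). Ntf5, Nrg2 and Gdnf were near the floor, with medians of 0.0349, 0.151 and 0.168 CPM over the 45 libraries.

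Most genes of autonomic neurons were lower in NZO/HlLtJ than in C57BL/6J, a comparison in which the Schwann cell genes had medians above 0. Of 15 such genes, 12 were lower and 1 higher in NZO/HlLtJ than in C57BL/6J on 10% fat (median log2 fold change -1.52). On 44% fat 13 were lower and 1 higher (median -2.0). Of all genes tested, 43.8% and 67.8% were called in these comparisons. The 6 Schwann cell genes in these comparisons had medians of 0.52 and 1.37. Slc18a3, the vesicular acetylcholine transporter, was at -2.30 on 10% fat (SE 0.43), Npy, a peptide of sympathetic fibres, at -2.26 (SE 0.34), Chrna3, a nicotinic receptor of ganglia, at -2.09 (SE 0.41), and Vip, a peptide of parasympathetic fibres, at -1.94 (SE 0.49). On 10% fat, Slc18a3 ranged over 2.17 to 4.58 CPM in 4 C57BL/6J females and over 0.761 to 1.94 CPM in 4 NZO/HlLtJ females, which did not overlap. Against CAST/EiJ on 10% fat, 12 of the 15 were lower in NZO/HlLtJ and none higher, whereas CAST/EiJ against C57BL/6J gave 3 higher and 2 lower. The shares of all genes called there were 54.8% and 48.0%. Summed over the 15 genes, the libraries were at 527 to 793 CPM in CAST/EiJ, where the 6 Schwann cell genes also had a higher median sum than in C57BL/6J (16.8 against 8.3 CPM), at 184 to 376 CPM in C57BL/6J and at 90.7 to 262 CPM in NZO/HlLtJ. Islet endocrine cells of mice use some of these genes too, Elavl4 in beta cells among them, and their part in these differences was not tested. On 44% fat in NZO/HlLtJ, 1 of the 15 rose and 3 fell as a mean over the sexes, where 35.8% of all genes were called. Hand2, a factor of sympathetic neurons, rose by 0.64 (SE 0.24), and Th, tyrosine hydroxylase, fell by 0.93 (SE 0.16). Without the 5 libraries the counts were 12 lower and 1 higher on 10% fat, 13 lower and none higher on 44% fat, and 0 rising and 2 falling with diet.

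**Figure D5:**
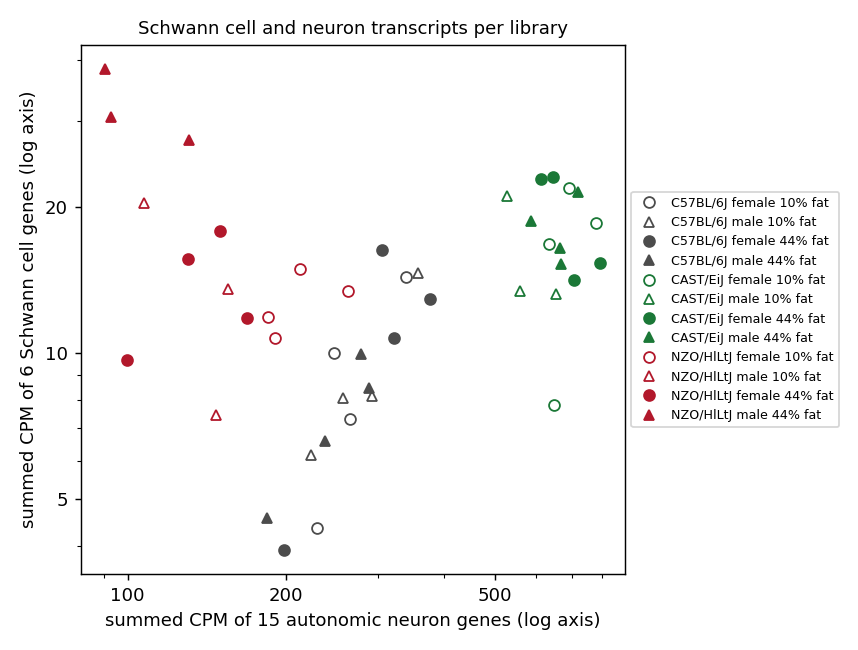
Summed CPM of the 6 Schwann cell genes (y axis, log) against summed CPM of 15 autonomic neuron genes (x axis, log) in each of 45 libraries, by strain, sex and diet (open for 10% fat, filled for 44% fat). CAST/EiJ libraries lie at 527 to 793 CPM of neuron genes and NZO/HlLtJ libraries at 90.7 to 262, while the 3 highest sums of Schwann cell genes, 27.4 to 38.4 CPM, are those of NZO/HlLtJ males on 44% fat.

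Markers of other cell types moved with the diet in NZO/HlLtJ beside the Schwann cell genes. As a mean over the sexes, 35.8% of all genes were called there and 18.5% were called higher. Of 11 genes of stellate cells and fibroblasts, 10 rose and none fell as a mean over the sexes (median 1.28), and their summed level went from 829 to 1988 CPM in males on 10% fat to 2364 to 4218 CPM on 44% fat. All 7 macrophage genes rose (median 1.92), from 67.1 to 206 CPM in sum in males on 10% fat to 337 to 592 CPM on 44% fat. All 6 lymphocyte genes rose (2.56), 4 of 6 endothelial genes rose (0.30) and 5 of 7 duct genes rose (1.49), with none falling in these lists. Of 12 acinar genes none passed (1.02), with sums of 35171 to 49022 CPM in males on 10% fat and 63042 to 132673 CPM on 44% fat. Of 8 beta cell genes 6 fell and none rose (-0.60), and the sums in males were 120643 to 157732 CPM on 10% fat and 43028 to 93663 CPM on 44% fat. In females none of the 8 fell and Ins1, an insulin gene, rose (0.61, SE 0.19, adjusted p = 0.0260), with sums of 89686 to 121439 CPM on 10% fat and 113548 to 160901 CPM on 44% fat. Alpha cell genes gave 1 rise and 1 fall of 4 (0.06), and delta cell genes gave 1 rise and 2 falls of 4 (-0.22). Their part in the values of the Schwann cell genes was not tested. Of the 6 melanocyte markers, which share the Sox10 lineage, 3 were in the matrix, with sums of 1.05 to 7.45 CPM over the 45 libraries and none called for diet in NZO/HlLtJ. Of the 6 astrocyte and oligodendrocyte markers 3 were in the matrix. Their sum was 106 to 140 CPM in NZO/HlLtJ males on 44% fat against 12 to 45.7 CPM on 10% fat. Aqp4, a water channel that other epithelia also use, rose as a mean over the sexes (1.65, SE 0.28) and reached 134 CPM. Slc1a2, a glutamate transporter, rose too (1.33, SE 0.49) but stayed at or below 1.94 CPM in every library. The defining genes Olig2, Mog and Mobp were not analysed here. Of the 4 adipocyte markers, 1 was in the matrix, at no more than 0.138 CPM.

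Within groups, the 6 genes varied together from library to library. The deviations of log2(CPM + 0.5) from the 12 group means were compared over the 45 libraries for all 15 pairs of members. Pearson's r ran from 0.54 for Ngfr with Foxd3 to 0.87 for Sox10 with Cdh19, and Spearman's rho from 0.56 to 0.87. Every pair passed a permutation test within groups (largest adjusted p = 0.00105 for r and 0.00106 for rho). With the 2 libraries farthest from the median of the first gene left out, r was 0.48 to 0.84. Both values come from the same library, so its depth, dissection and composition are shared by the pair. By the same measure, and as a description with no test, the genes most like Sox10 were Gpr37l1, an orphan receptor of glia (r = 0.91, rho = 0.89), Kcna6, a potassium channel (r = 0.91, rho = 0.89), and L1cam, an adhesion protein of axons and Schwann cells (r = 0.86, rho = 0.84). Those most like Cdh19 were Col28a1, a collagen of peripheral nerve glia (r = 0.90), Kcna6 (r = 0.89) and Csmd1 (r = 0.87), and those most like S100b were Gpr37l1 (r = 0.84), Col28a1 (r = 0.81) and Hand2 (r = 0.81). The nearest genes to Ngfr were Chl1, an adhesion protein of neurons and glia (r = 0.90), Nell2 (r = 0.89) and Sv2c, a synaptic vesicle protein (r = 0.89). Gfap was nearest to C1ql2 (r = 0.81), Tppp3 (r = 0.81) and Slc10a4, a transporter of synaptic vesicles (r = 0.80). Foxd3 was nearest to Hand2 (r = 0.73), Adgrb2 (r = 0.72) and Elfn2 (r = 0.71).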

How the data were processed

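The deposited files hold estimated counts per gene, which the authors did not normalise, and variance-stabilised values, which the authors made on a log2 scale. GRCm38 and DESeq2 are named in the submitters' processing notes. For the aligner and the counting program, the sources used here give no name. Estimated counts, of which 23.6% were not whole, were rounded. Genes were tested by quasi-likelihood in edgeR 4.0.16 (R 4.3.3) with TMM factors, its default filter (20306 genes tested) and 1 model of the 12 groups over 45 libraries. Benjamini-Hochberg adjustment ran over all genes within each of 15 comparisons, at an adjusted p under 0.05, and SE came from the log2 fold change and F. The procedure was run on simulated counts with the same spread for every gene, which does not bear on calls that rest on single libraries. Exact permutation tests used SciPy 1.17.1. Alternatives used DESeq2 1.42.0, limma 3.58.1 (on the deposited log2 values), other scalings and left-out libraries. Genes of other lists were mostly named by a rule, at most the 4 largest changes among called genes of a list. Some, Ncam1 and Ins1 among them, were named outside it for a change in the other direction or in a single sex. Members and lists were chosen with earlier results of these data known. Whether libraries are separate mice is not stated in the labels. The p-values thus reflect only how far these libraries vary, which may be technical. Some genes of these lists are not reported here by name.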

Additional observations from a re-analysis of the deposited data

Results flagged for a closer look

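Of 54 combinations of a gene and a group of 4 libraries, 4 had a highest library that stood apart from the other 3 by Dixon's criterion, which chance gives in about 1 of 20 groups. In C57BL/6J males on 10% fat the highest library was at 3.04 CPM for Sox10 and at 1.22 CPM for S100b, and it is the same library, replicate 2. In CAST/EiJ males on 44% fat the highest library was at 3.44 CPM for Sox10, and in C57BL/6J females on 10% fat the highest was at 0.633 CPM for Foxd3. The diet effect on Foxd3 differed between NZO/HlLtJ and C57BL/6J, by 1.22 on the log2 scale (SE 0.43, edgeR adjusted p = 0.0433).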

How the results depend on the processing

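No paired analysis was possible because replicate numbers only follow the order of the samples. Of 149 counts of members called under alternatives other than single left-out libraries, 130 stayed within 1.5 times the reported count. For the NZO/HlLtJ diet effect (2 reported) library totals alone gave 0, leaving out the 5 libraries with another strain's transcripts 0, and NZO/HlLtJ libraries alone 4. In NZO/HlLtJ males (4 reported) these gave 1 with library totals, 0 without the 5 libraries, and 2 with the dispersion steps of edgeR 3. That alternative, and the ratios and list counts with libraries left out, were chosen after seeing the data. The difference in diet effect from C57BL/6J (1 reported) gave 0 with library totals, an acinar covariate, the 5 libraries left out, the edgeR 3 steps or only the strains compared. The male minus female difference in NZO/HlLtJ (0 reported) gave 3 with number series as a factor, 1 with limma and 2 with DESeq2. NZO/HlLtJ minus C57BL/6J on 10% fat (2 reported) gave 1 with only those strains. CAST/EiJ minus C57BL/6J gave 5 on 10% fat with the acinar covariate (3 reported) and 3 on 44% fat without the 5 libraries (5 reported). NZO/HlLtJ minus CAST/EiJ on 44% fat (2 reported) gave 1 with library totals and 1 with the acinar covariate. The ratio of S100b to Sox10 in NZO/HlLtJ minus C57BL/6J on 44% fat was -0.77 without the 5 libraries (exact permutation adjusted p = 0.0649). The causes were not tested.

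Gfap in NZO/HlLtJ females turned from 0.06 to -0.15 with library totals, -0.12 with number series as a factor and -0.048 with the acinar covariate. Leaving out single libraries moved it from -0.031 to 0.18, Sox10 from -0.39 to 0.013 and Cdh19 from -0.31 to 0.040. It gave 0 to 3 members called for diet in NZO/HlLtJ, 0 to 6 in its males, 0 to 1 for the difference from C57BL/6J, 0 to 3 for NZO/HlLtJ and 2 to 6 for CAST/EiJ minus C57BL/6J on 10% fat, 5 to 6 and 5 to 5 for these on 44% fat, and 1 to 1 and 1 to 2 for NZO/HlLtJ minus CAST/EiJ on 10% and 44% fat. S100b to Sox10 ratios kept their calls when any single library was left out.

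Counts of all genes called also moved. In C57BL/6J (5 for diet) DESeq2 gave 49 and the other alternatives 1 to 9, and in CAST/EiJ (9) DESeq2 gave 42 and the others 0 to 16. NZO/HlLtJ libraries alone gave 1360 of 3492 in females and 134 of 2030 for the sex difference. NZO/HlLtJ minus C57BL/6J on 10% fat (8903) gave 5765 with library totals, and males minus females (185) gave 54 with library totals and 376 with DESeq2. Library totals alone gave 1491 in NZO/HlLtJ females, 3308 of 6518 in males and 260 for their difference. Without the 5 libraries these were 2733 in males and 213 for the difference. The differences in diet effect from C57BL/6J (3814) and CAST/EiJ (5210) fell to 1544 and 2627 with library totals and to 1831 and 2898 without the 5 libraries. Foxd3, at 5 to 208 counts per library, is the member most limited by depth.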
